A study of Mus musculus with 4 samples.

Results

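Methyl-CpG binding protein genes encode readers of DNA methylation, and 7 of them were followed here: Mbd1, Mbd2, Mbd3, Mbd4, Zbtb4, Zbtb33 and Zbtb38. They were chosen by gene symbol from the 36846 symbols of a table of RefSeq transcripts, and the counts of all transcripts of a symbol were summed. The cells were MEFs, fibroblasts of the mouse embryo, and RNA was sequenced from 2 libraries of wild type (WT) cells and 2 of Dnmt3l knockout (Dnmt3l-KO) cells. All were C57BL/6 lines at passage 4, grown from embryos of day 13.5 to 14.5 whose parents were both Dnmt3l+/-, and RNA freed of ribosomal RNA was primed at random. Whether replicates stem from different embryos is not stated, and p-values here reflect a between-library spread that may be technical. By its title the study concerns the use of such knockout cells as nuclear donors in cloning.

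Cytosine methylation at CpG sites is laid down by DNA methyltransferases, for which Dnmt3l is a cofactor without catalytic activity. Among the members, the readers of this methylation are of 2 structural kinds. Mbd1, Mbd2 and Mbd4 bind methylated CpG through a methyl-CpG binding domain (MBD), while Zbtb33 (Kaiso), Zbtb4 and Zbtb38 bind it through zinc fingers and carry a BTB domain for contacts with other proteins. Mbd3 has the MBD fold but, in mammals, shows little preference for methylated DNA. Most of these proteins bring corepressors to DNA: Mbd2 and Mbd3 are alternative subunits of the NuRD complex, which joins a nucleosome remodeller to histone deacetylases. Mbd4 is the exception, a DNA glycosylase that repairs the mismatch left when methylated cytosine is deaminated.

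Total counts per library were between 40681328 and 51465395. Dnmt3l had 6 counts and 1 count in WT, against 0 in either knockout library, around a floor of 3 counts, so it does not check the genotype labels. All 10 fibroblast markers were above 3 counts in each library, with summed levels of 16350 and 19540 CPM (counts scaled to a common library depth) in WT against 18170 and 23410 CPM in the knockout. Single markers were less even. Except for Vim and Fn1, each was lowest in Dnmt3l-KO replicate 1 and highest in Dnmt3l-KO replicate 2. Col3a1 had 471 and 368 CPM in WT against 190 and 895 CPM in the knockout, and Lum 1.19 and 2.54 against 0.42 and 9.38 CPM. Vim had 4667 and 4356 CPM in the knockout, and Fn1 7826 and 7866 CPM. The summed markers of other cell types were low, at 43.9 to 51.2 CPM in WT and 41.8 to 57.9 CPM in Dnmt3l-KO for the neural list, 16.9 to 17.0 and 16.2 to 27.2 CPM for muscle, and 7.01 to 8.53 and 4.90 to 17.9 CPM for endothelium. The epithelial list reached 5.80 to 7.62 and 3.97 to 5.83 CPM, leukocytes 3.38 to 3.64 and 3.80 to 4.15 CPM, and pluripotent or germ cells 0.127 to 0.383 and 0.0957 to 0.301 CPM, with Dppa3 at 0 throughout. The part of such cells in the results below was not tested, and in bulk RNA a smaller number of expressing cells cannot be told apart from less RNA per cell.

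The members differ in the CpG content of their promoters, the sequence in which methylation itself can lie. RefSeq promoter windows (GRCm38.p6; the submitters' processing notes name the build mm10), each of 250 bases before and 50 bases after a start, were at hand for 5 of the 7 genes, with 3 separate starts for Zbtb38. The 250 bases before the start are shown for Mbd3, which had the smallest p of the members, for Zbtb33, the most CpG-rich of the single-start windows, and for the outermost start of Zbtb38, the poorest. Capitals mark each CpG.
Mbd3, chr10:80399532-80399781, minus strand: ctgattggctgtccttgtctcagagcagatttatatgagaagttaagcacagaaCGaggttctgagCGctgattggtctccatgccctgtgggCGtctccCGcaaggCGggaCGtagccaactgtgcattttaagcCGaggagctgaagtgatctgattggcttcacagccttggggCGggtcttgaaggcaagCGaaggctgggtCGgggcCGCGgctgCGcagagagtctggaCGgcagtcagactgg
Zbtb33, chrX:38189543-38189792, plus strand: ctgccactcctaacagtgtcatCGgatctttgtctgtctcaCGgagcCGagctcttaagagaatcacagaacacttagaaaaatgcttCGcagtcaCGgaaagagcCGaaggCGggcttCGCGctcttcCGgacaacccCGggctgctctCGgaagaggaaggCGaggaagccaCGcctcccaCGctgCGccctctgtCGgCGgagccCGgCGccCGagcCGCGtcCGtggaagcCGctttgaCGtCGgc
Zbtb38, chr9:96731676-96731925, minus strand: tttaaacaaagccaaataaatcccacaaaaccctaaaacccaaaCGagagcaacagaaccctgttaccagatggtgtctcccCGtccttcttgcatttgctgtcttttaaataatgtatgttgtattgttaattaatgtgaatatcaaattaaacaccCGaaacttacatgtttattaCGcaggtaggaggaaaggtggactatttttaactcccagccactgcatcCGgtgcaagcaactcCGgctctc
Over the whole 300-base window Mbd3 held 22 CpG, Zbtb33 34 and this start of Zbtb38 8, against a median of 7 over 32851 windows. The other Zbtb38 starts held 41 and 25 CpG, so the gene has CpG-poor and CpG-rich starts. Zbtb4 held 22 and Mbd4 25. The Kaiso consensus TCCTGCNA, searched on both strands, was found once in the Mbd3 window, in or reaching into the 50 bases after the start and therefore not in the printed stretch, and in none of the other 6 windows of the members. It occurs in 4.96% of all windows. The palindrome CGCG, which holds 2 neighbouring CpG sites as Kaiso binds them when methylated, was found in 5 of the 7 windows (all but Zbtb4 and the outermost Zbtb38 start) and in 38.0% of all windows. These are matches of letters, and no methylation or binding was measured.

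The members spanned a wide range of levels, and their order over all transcripts was the same in all 4 libraries. Levels between genes are compared in FPKM, fragments scaled to transcript length and library depth, summed per gene. Mbd3 (chromosome 10, 80392539 to 80399531, GRCm38) was highest, at 27.0 and 29.8 FPKM in WT replicates 1 and 2 and 40.6 and 36.0 FPKM in Dnmt3l-KO replicates 1 and 2. Mbd2 (chromosome 18, 70568225 to 70629134), its alternative in NuRD, followed with 22.8 and 26.2 FPKM in WT against 32.3 and 28.8 FPKM in the knockout. Mbd3 exceeded Mbd2 in each library, although the ranges of these neighbours over the 4 libraries overlapped. With curated transcripts alone Mbd2 was the higher of them, at a mean of 27.1 FPKM against 23.9 FPKM for Mbd3.

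The zinc finger readers lay well below. Zbtb38 (chromosome 9, 96682767 to 96731675) had 10.9 to 11.8 FPKM over the 4 libraries, and Zbtb4 (chromosome 11, 69765912 to 69784026) had 7.36 to 9.38 FPKM. Zbtb33 (chromosome X, 38189793 to 38197046) had 6.06 to 6.66 FPKM, overlapping the 5.24 to 6.14 FPKM of Mbd1 (chromosome 18, 74267605 to 74282737), the reader that partners the H3K9 methyltransferase Setdb1. Mbd4 (chromosome 6, 115840697 to 115853400), the glycosylase, was lowest at 0.448 to 0.882 FPKM. No other neighbours in this order overlapped.

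**Figure D1:**
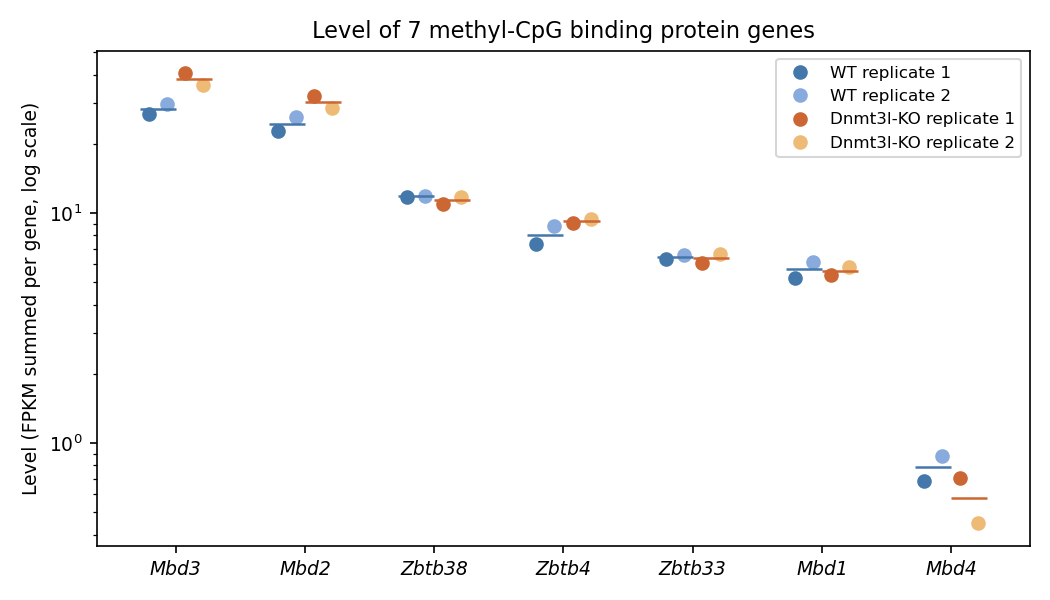
Level of each member in each library, in FPKM summed per gene on a log axis. Points are the 4 libraries and short lines the genotype means (n = 2 each). Mbd3 and Mbd2 lie above 20 FPKM, Mbd4 below 1 FPKM, and the remaining 4 genes between 5.24 and 11.8 FPKM.

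As a share of the summed FPKM of the 7 genes, Mbd3 made up 33.1 ± 0.177% in WT and 37.5 ± 1.58% in Dnmt3l-KO (mean ± SD, n = 2 each), and Mbd2 28.6 ± 0.679% and 29.9 ± 1.13%. Zbtb38 made up 13.8 ± 0.99% and 11.2 ± 1.05%. The pair of NuRD subunits thus formed most of the MBD and Kaiso-family message in both genotypes. The summed level was 85.8 ± 6.43 FPKM in WT and 101.9 ± 4.40 FPKM in Dnmt3l-KO, a difference carried mostly by Mbd3 and Mbd2.

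The comparison of genotypes asked whether cells without Dnmt3l express the readers of methylation differently. None of the 7 members passed edgeR's quasi-likelihood test after Benjamini-Hochberg adjustment over 14760 genes (adjusted p = 0.999 for each), in a comparison that called 0.0203% of all genes. One member, Mbd3, had an unadjusted p under 0.05, where 4.15% of all genes did, and DESeq2's Wald test, which called 0.166% of all genes, called 0 members with 1 at that level. The fold changes pointed up in 3 members and down in 4, with a median log2 fold change of -0.073 beside 0.0062 over all genes. Their median size without sign was 0.14, close to the 0.13 of all genes tested.

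Mbd3 had 52.0 and 52.2 CPM in WT against 73.6 and 62.5 CPM in the knockout. Neither knockout library reached down to WT, and they lay further from each other than the WT libraries did. The log2 fold change was 0.38 ± 0.11 (SE, 95% interval 0.093 to 0.68 for this gene alone, edgeR, unadjusted p = 0.0193, adjusted p = 0.999), and 1.32% of all genes had a p as small. Over 14 alternatives its adjusted p stayed at 0.244 or above, while its unadjusted p ran from 0.0021 to 0.105 and was above 0.05 without WT replicate 1 or 2 and with a correction for length and GC content. Dnmt3l-KO replicate 1, the highest library, also had the highest summed endothelial (17.9 CPM) and muscle (27.2 CPM) markers. In that library these sums were almost wholly Kdr (17.5 CPM) and Des (27.1 CPM). The other listed markers were near the floor there, Pecam1 at 0.12, Cdh5 at 0.24, Myod1 at 0 and Myog at 0.10 CPM. Pecam1 was below both WT libraries (0.19 and 0.14 CPM). The same library was the lowest for all listed fibroblast markers except Vim and Fn1. What part the makeup of the cells has in the value of Mbd3 was not tested. The log2 fold change was 0.26 without Dnmt3l-KO replicate 1 and 0.50 without Dnmt3l-KO replicate 2.

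Mbd2, which unlike Mbd3 directs NuRD to methylated DNA, had 49.5 and 51.6 CPM in WT against 66.1 and 56.5 CPM in the knockout. As with Mbd3, both Dnmt3l-KO libraries lay above WT and replicate 1 was the higher of them. Its log2 fold change was 0.28 ± 0.11 (SE, 95% interval -0.014 to 0.57), with 0.16 without Dnmt3l-KO replicate 1. The count ratio of Mbd3 to Mbd2 was 1.05 and 1.01 in WT and 1.11 in each Dnmt3l-KO library, a log2 difference of 0.11. An exact two-sided permutation test gave p = 0.333, the smallest value that 2 against 2 libraries allow.

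Mbd1 had 19.6 and 21.5 CPM in WT against 19.6 and 19.4 CPM in the knockout, so the groups overlapped. Its log2 fold change was -0.073 ± 0.11 (SE, 95% interval -0.34 to 0.20). Mbd4 had 151 and 148 counts in WT against 159 and 81 counts in the knockout, or 3.21 and 3.55 against 3.19 and 1.94 CPM. The lower mean came from Dnmt3l-KO replicate 2, since replicate 1 was just below WT, and without replicate 2 the log2 fold change went from -0.39 ± 0.31 (SE, 95% interval -1.19 to 0.40) to -0.084. Without replicate 1 it was -0.80 ± 0.26 (SE, edgeR, unadjusted p = 0.0299, adjusted p = 0.376, the lowest over its 14 alternatives). The interval with all 4 libraries was the widest of the 7, and Mbd4 had the fewest counts of the members. What part the low counts have in that width was not tested.

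The Kaiso family showed small differences. Zbtb33, whose product also binds p120 catenin (Ctnnd1), had 37.2 and 35.4 CPM in WT against 33.5 and 35.4 CPM in the knockout, with overlapping groups and a log2 fold change of -0.073 ± 0.097 (SE, 95% interval -0.32 to 0.18). Zbtb38 had 58.6 and 54.3 CPM in WT against 51.9 and 54.1 CPM in the knockout, groups that missed each other narrowly, with -0.091 ± 0.096 (SE, 95% interval -0.34 to 0.16). Zbtb4, a repressor of the cell cycle inhibitor gene Cdkn1a, had 57.4 and 60.3 CPM in WT against 65.8 and 64.0 CPM in the knockout, without overlap, with 0.14 ± 0.089 (SE, 95% interval -0.088 to 0.37). The sign of the Zbtb4 difference turned, to -0.053, when curated transcripts alone were counted, and its size was 0.026 with the length and GC correction.

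In all, the genotypes did not overlap in 5 members, 3 higher (Mbd3, Mbd2 and Zbtb4) and 2 lower (Zbtb38 and Mbd4) in Dnmt3l-KO. Over all genes tested 32.8% did not overlap, 16.2% higher and 16.5% lower. In FPKM 4 members did not overlap, Mbd4 being the one that did.

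**Figure D2:**
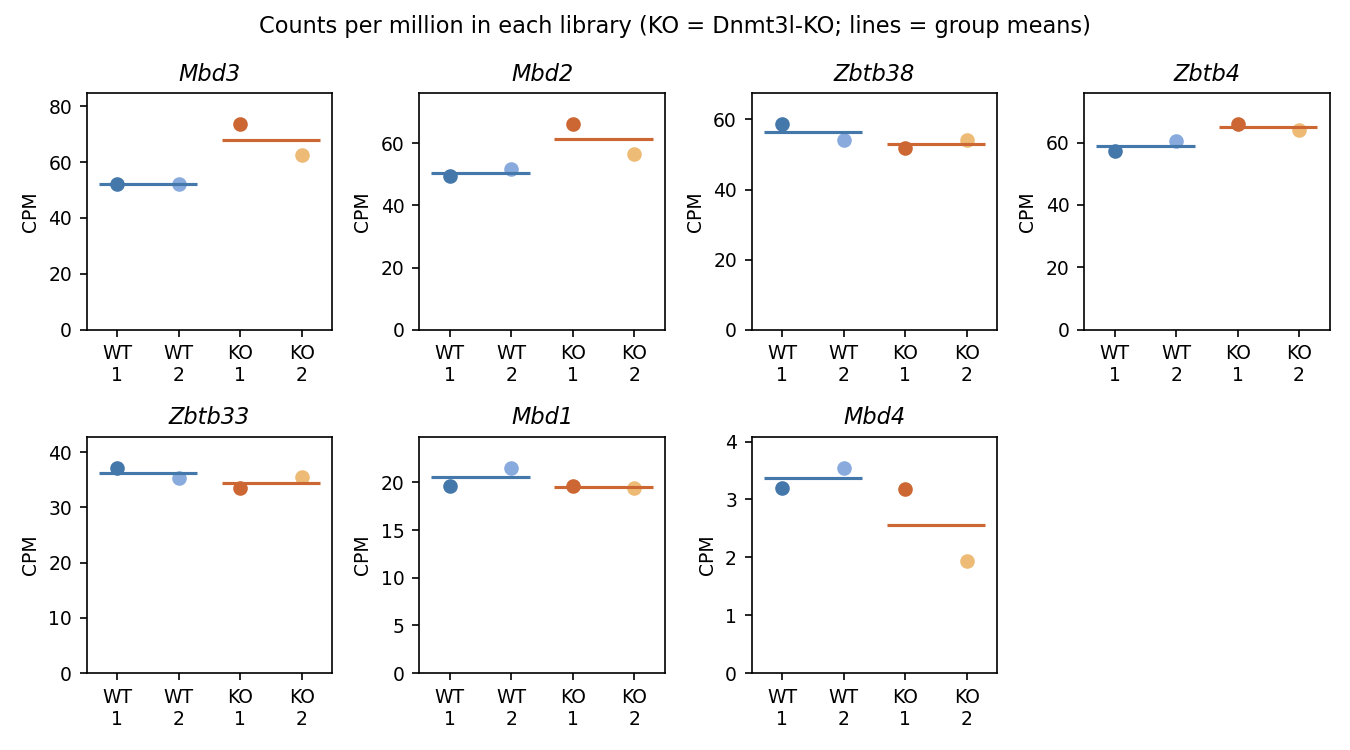
CPM of each member in each library on linear axes from 0 (KO stands for Dnmt3l-KO), with lines at the genotype means (n = 2 each). Mbd3 and Mbd2 share a pattern of near-equal WT libraries below Dnmt3l-KO replicate 2 and, above it, replicate 1, and the low point of Mbd4 is Dnmt3l-KO replicate 2 at 1.94 CPM.

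By shape over the 4 libraries, the genes closest to Mbd3 among 12482 with a mean of at least 1 CPM were Fam222b, Mdfi, a regulator of myogenic factors, and LOC101055928. Their centred log2 CPM profiles lay 0.0155, 0.0186 and 0.0195 (root mean square) from that of Mbd3, and 45 genes lay within 0.05. With 4 libraries many genes share a shape, so this is a description.

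Mbd3 lies 2.33 Mb from Dnmt3l on chromosome 10. Of the 84 tested genes within 1 Mb of Mbd3, 0 passed in edgeR, and 10 (11.9%) had an unadjusted p under 0.05, beside 4.15% of all genes tested. Their median log2 fold change was 0.091, beside 0.0062 over all genes tested. Mbd3 itself is not counted there. What part closeness to Dnmt3l has in the value of Mbd3 was not tested. Several members overlap other genes, and the sources used here do not say whether counting used strand. The noncoding gene Gm30823 covers 2530 bases of Mbd3 and was not analysed here. The overlaps with genes that are in the table were short, 22 bases of Mbd4 with Ift122, 474 bases of Zbtb33 with Tmem255a and 101 bases of Zbtb38 with E030011O05Rik. Tmem255a had 3 to 12 counts per library.

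The partners of these readers were looked at in 4 lists, and 1 of 46 tested genes passed in edgeR, beside 0.0203% of all genes. That gene was Tdg, whose value is uncertain, as given below with its pseudogene. NuRD partners held 13 genes, of which 0 passed and 2 had an unadjusted p under 0.05, beside 4.15% of all genes. The list had a median log2 fold change of 0.073, 8 positive and 5 negative, beside a median of 0.0062 over all genes. Those 2 were Mta3 and Mta1, scaffold subunits that join the deacetylases to the complex. Mta3 had 21.7 and 22.9 CPM in WT against 29.2 and 28.3 CPM in the knockout, a log2 fold change of 0.37 ± 0.098 (SE). Mta1 had 64.9 and 56.9 CPM in WT against 78.8 and 76.2 CPM in the knockout, or 0.35 ± 0.10 (SE). Gatad2a, a zinc finger subunit held by Mbd2 or Mbd3, had 114.2 and 114.1 CPM in WT against 151.7 and 127.2 CPM in the knockout (0.29 ± 0.12, SE), with Dnmt3l-KO replicate 1 the highest library, as for Mbd3. In 6 of the 13 genes both Dnmt3l-KO libraries lay above WT, and in 1 below, beside 16.2% and 16.5% of all genes tested. The histone-binding subunit Rbbp7 and the small subunit Cdk2ap1, the 2 highest in FPKM, had log2 fold changes of -0.014 ± 0.096 and -0.025 ± 0.087 (SE).

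**Figure D3:**
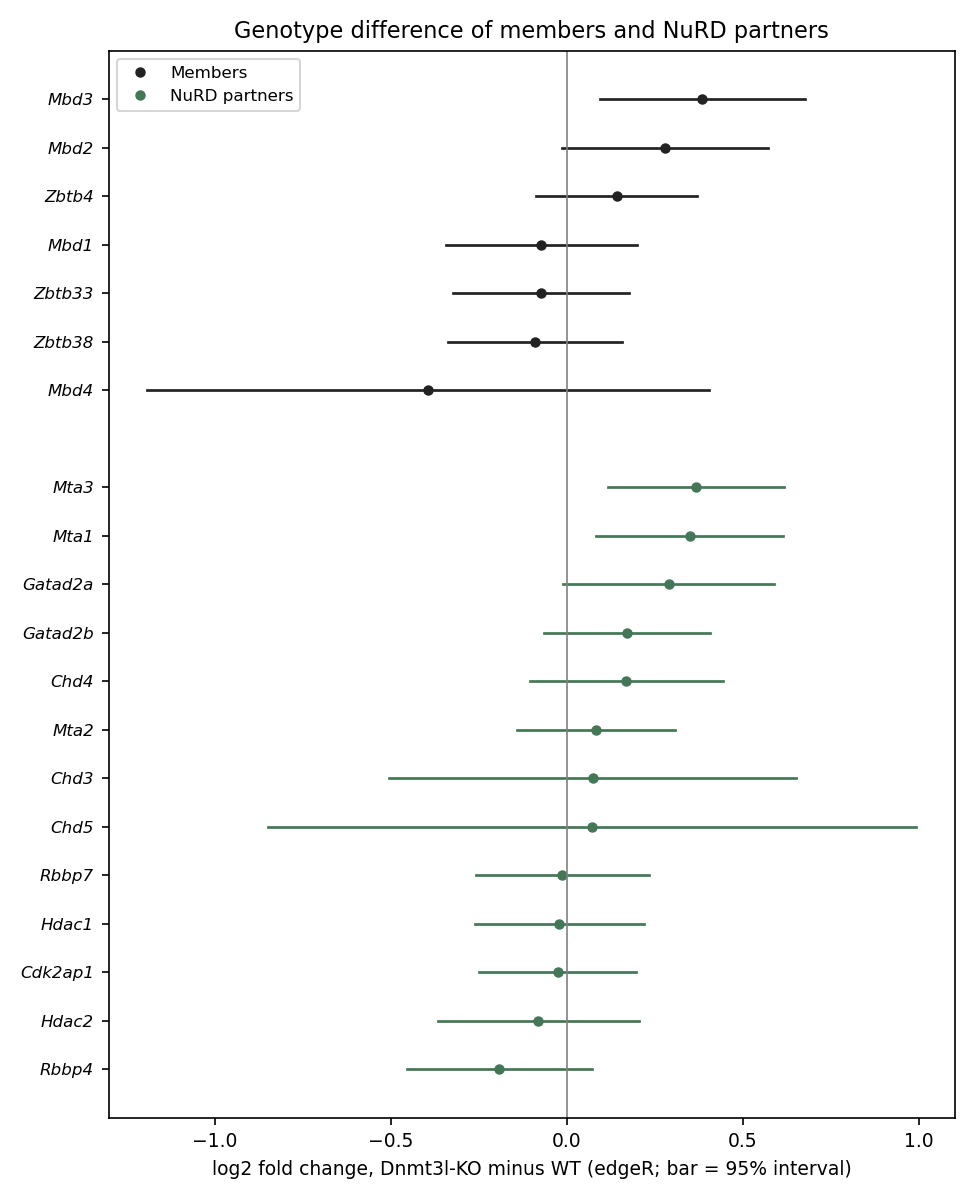
Log2 fold change of Dnmt3l-KO over WT for the 7 members and 13 NuRD partners, from edgeR's fit over all genes. Bars are 95% intervals of each gene alone. The interval of Mbd3 excludes 0, as do those of Mta3 and Mta1, and 0 of these genes passed after adjustment.

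Of the 15 corepressor partners 0 passed in edgeR and, as in the NuRD list, 2 had an unadjusted p under 0.05, beside 4.15% of all genes. The list had a median log2 fold change of -0.0058, 7 positive and 8 negative. In 3 genes both Dnmt3l-KO libraries lay above WT, and in 3 below, beside 16.2% and 16.5% of all genes tested. Ncor1, a corepressor that Kaiso recruits, had 114.3 and 112.9 CPM in WT against 115.7 and 140.7 CPM in the knockout (0.17 ± 0.12, SE), with Dnmt3l-KO replicate 1 next to WT. Atf7ip, which links Mbd1 to Setdb1, had 72.7 and 68.3 CPM in WT against 88.4 and 80.7 CPM in the knockout (0.26 ± 0.097, SE). Ctnnd1, the catenin that binds Kaiso, and Cbx5, a heterochromatin protein, were the highest in FPKM, with -0.12 ± 0.12 and -0.12 ± 0.097 (SE).

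Of 10 relatives that share the MBD fold, resemble Mbd3 or read methylated DNA by other means, 8 were tested. In edgeR 0 passed and 0 had an unadjusted p under 0.05, and the list had a median log2 fold change of 0.028, 5 positive and 3 negative. The remaining 2, the Mbd3-like genes Mbd3l1 and Mbd3l2, had 0 counts in all libraries. Mbd6, an MBD-fold protein that does not bind methylated DNA, had 8.45 and 7.60 CPM in WT against 9.68 and 11.5 CPM in the knockout (0.40 ± 0.16, SE). Uhrf1, which recognises hemimethylated DNA for maintenance methylation, had 49.1 and 56.9 CPM in WT against 51.8 and 55.4 CPM in the knockout (0.018 ± 0.11, SE). Its relative Uhrf2 had 72.5 and 70.3 CPM in WT against 65.9 and 65.2 CPM in the knockout (-0.12 ± 0.085, SE). Baz2a, a subunit of the nucleolar remodelling complex, had 0.12 ± 0.11 (SE).

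Of 10 genes of base excision repair and other partners of Mbd4, 9 did not pass, and the list had a median log2 fold change of -0.026, 5 positive and 5 negative. The exception, Tdg, the other glycosylase for thymine opposite guanine, was called lower in edgeR (log2 fold change -4.99 ± 0.16, SE, adjusted p = 0.0044). Tdg (82629814 to 82650799) lies on chromosome 10, as do Mbd3 and Dnmt3l (78042287 to 78063622). What part this position has in its value was not tested. Tdg had 1482 and 1160 counts in WT against 43 and 42 in the knockout, while its pseudogene Gm9855, 99.2% identical over 1194 bases, had 0 counts in both WT libraries against 1602 and 1336 in the knockout. Their sum was 31.5 and 27.8 CPM in WT against 33.0 CPM in each knockout library, so the separate values are uncertain. The call was lost without WT replicate 1 and with curated transcripts alone, where 0 partner genes passed. Polb, the gap-filling polymerase, had 21.1 and 19.1 CPM in WT against 17.2 and 15.6 CPM in the knockout (-0.30 ± 0.12, SE), and Apex1, the endonuclease that cuts at the empty site, had -0.11 ± 0.10 (SE).

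The table gives counts per transcript, and the members differed in how many they spread over. They had 41 transcripts, 8 of them curated and the rest predicted, and 19 held at least 10% of their gene's counts in some library. Of the 30 tested as separate features 0 passed in edgeR and 1 had an unadjusted p under 0.05, in a comparison of 39633 transcripts that called 0.00252% and had 4.12% at that level. That one was the curated Mbd3 transcript, with 1589 and 1443 counts in WT against 2536 and 1950 in the knockout (log2 fold change 0.51 ± 0.13, SE, unadjusted p = 0.0111, edgeR). In the authors' deposited table its log2 fold change was 0.48 with an adjusted p of 0.539. The predicted Mbd3 variant X4 had 598 and 522 counts in WT against 848 and 385 in the knockout (0.057 ± 0.34, SE).

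Mbd2 was nearly a single-transcript gene, with 98.4 to 99.7% of its counts on the curated transcript. Zbtb38 had 70.1 to 77.1% on its curated transcript, and no other of its 8 reached 10%. Mbd1 was spread over the curated transcript, with 407 and 310 counts in WT against 321 and 398 in the knockout, and 3 predicted variants. These were X5 (218, 315, 254 and 107 counts in the same order), X3 (217, 106, 131 and 217) and X1 (27, 93, 206 and 89), and the libraries of 1 genotype differed as much as the genotypes. In Mbd4 the predicted variant X2 had 25 and 26 counts in WT against 4 and 5 in the knockout (log2 fold change -2.50 ± 1.01, SE). The noncoding variant X6 had 74, 38, 105 and 44 counts.

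Zbtb33 has only 2 transcripts, both curated, and their sum differed little between genotypes. A higher count of 1 therefore goes with a lower count of the other, so the 2 are not separate observations. Variant 1 had 1128 and 788 counts in WT against 644 and 703 in the knockout, and variant 2 had 622 and 689 in WT against 1029 and 779 in the knockout. Neither overlapped between the genotypes. Over all transcripts the share without overlap was not counted, and over all genes tested it was 32.8%. The share of variant 1 was 58.9 ± 7.86% in WT and 43.0 ± 6.33% in Dnmt3l-KO (mean ± SD, n = 2 each), and the log2 fold changes were -0.53 ± 0.23 and 0.40 ± 0.20 (SE), which did not pass in edgeR (unadjusted p = 0.0783 and 0.099). GENCODE lists both RefSeq transcripts against the same transcript model, and the part of read assignment in the split was not tested.

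Zbtb4 showed how far such a split can shift in 1 library. Its predicted variant X1 had 185 and 169 counts in WT, 1659 in Dnmt3l-KO replicate 1 and 99 in replicate 2. In the same library variant X4 had 105 counts, against 544 and 835 in WT and 678 in Dnmt3l-KO replicate 2, and X3 and X2 had 13 and 38. The curated transcript had 1391 and 970 counts in WT against 1346 and 1023 in the knockout, and variant X6 had 41 and 103 in WT against 124 and 331 in the knockout. The sum over the gene was 2704 and 2518 counts in WT against 3286 and 2676 in the knockout, so the transcripts of Zbtb4 varied far more between libraries than the gene did.

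**Figure D4:**
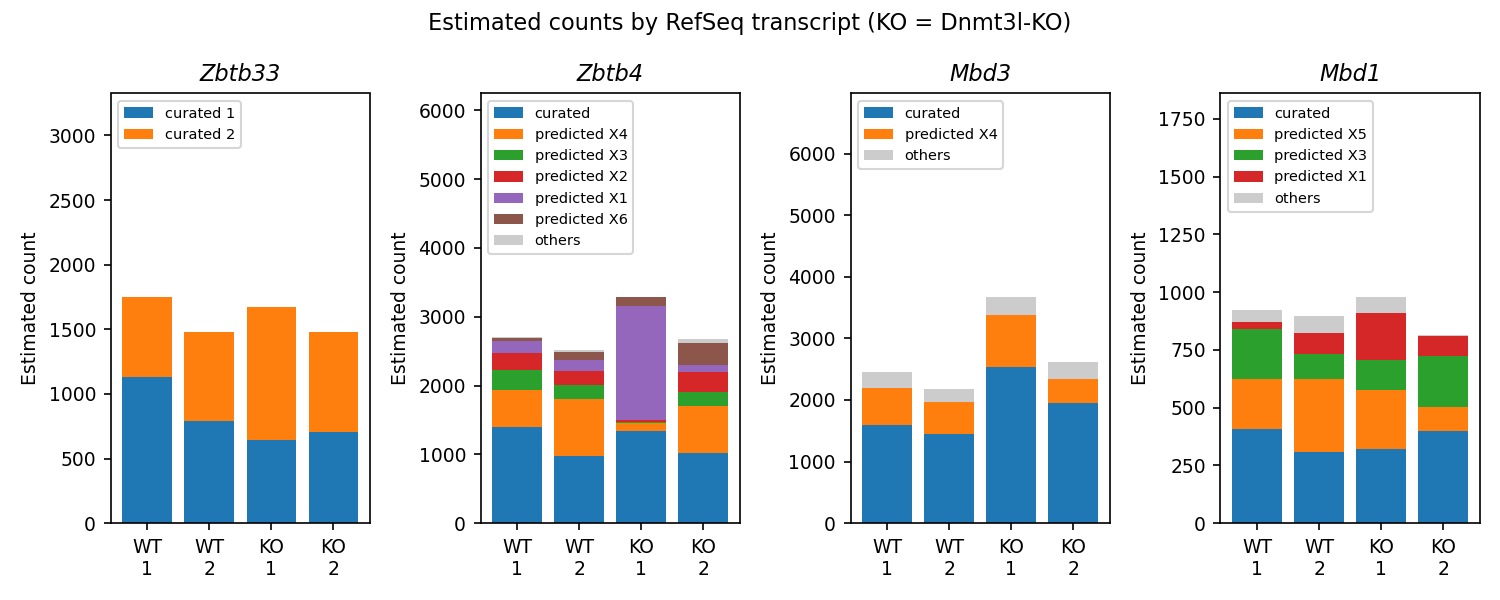
Estimated counts of the transcripts of Zbtb33, Zbtb4, Mbd3 and Mbd1 in each library, stacked on linear axes from 0 (KO stands for Dnmt3l-KO). Transcripts under 10% of the gene in every library are pooled as others. The split of Zbtb4 in Dnmt3l-KO replicate 1 stands apart through variant X1, with 1659 counts.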

How the data were processed

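RNA-seq of 2 WT and 2 Dnmt3l-KO fibroblast libraries was used. The submitters' processing notes name DESeq2 1.8.0, eXpress 1.4.1, TopHat2 2.0.12 and Cufflinks 2.2.1, with build mm10. What each tool did, and how reads shared by transcripts were divided, is not stated. Per the file headers, the authors deposited an estimated count and an FPKM value per RefSeq transcript and library, with their own comparison: an adjusted p-value and p-value, a test score, a log2 fold change and the standard error of it, and a mean signal. The estimated counts were deposited as whole numbers.

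Counts and FPKM were summed per symbol, the last bracketed word before a comma in the description. Of 36846 symbols, 14760 passed edgeR's expression filter. Dnmt3l-KO minus WT was fitted by robust quasi-likelihood with TMM scaling (edgeR 4.0.16, R 4.3.3), adjusted over all genes by Benjamini-Hochberg with a threshold of 0.05. Standard errors came from the F statistic and 95% intervals from its degrees of freedom. CPM used TMM library sizes. The procedure was run on simulated counts with planted changes. Their spread followed the trend over genes rather than each gene's own, so the run does not show which changes could be called here. Alternatives were DESeq2 1.42.0, limma 3.58.1 (voom, or log2 FPKM after adding 1 or 0.1), other scalings, no filter, curated transcripts alone, the replicate number as a block, and leaving out each library. A length and GC correction (loess, span 0.4) over the 90.1% of genes with a GENCODE sequence was added after seeing the data. Sequence identity came from BLAST 2.17.0. Counting intervals would not cover PCR copies.

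All 7 members, Dnmt3l, the 3 partners of each list with the smallest p and the 2 with the highest FPKM, the 3 genes nearest in shape to the member with the smallest p, and member transcripts with at least 10% of a gene's counts are named. One gene this rule names is not reported here. Gm9855 and the overlapping genes were added after their values were seen. The members and lists were chosen with earlier results of these data known.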

Additional observations from a re-analysis of the deposited data

How the results depend on the processing

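Across 14 alternatives for each member, 0 members were called in any, in edgeR, DESeq2 or limma. Mbd1, Mbd2, Mbd3, Mbd4, Zbtb33 and Zbtb38 kept the sign of their log2 fold change in all 14, and Zbtb4 turned once, to -0.053 with curated transcripts alone. In settings that kept all libraries the log2 fold changes ran from 0.35 to 0.50 for Mbd3, 0.25 to 0.31 for Mbd2 and -0.83 to -0.18 for Mbd4. Among the partner genes, 1 call (Tdg) became 0 with curated transcripts alone, where 45 genes were tested in place of 46. The call was lost without WT replicate 1. Of the transcripts of the members 0 were called in each setting run. By FPKM of curated transcripts alone, 3 of the 7 members kept their place in the order: Mbd2 (27.1 FPKM) then passed Mbd3 (23.9 FPKM), and Zbtb33 (6.41 FPKM) passed Zbtb4 (3.03 FPKM). The Mbd3 to Mbd2 log2 ratio difference was 0.24 with curated transcripts and 0.079 to 0.13 with 1 library left out. With the replicate number as a block, 0 members were called and Mbd3 had a log2 fold change of 0.38. Replicates with the same number share nothing more by the labels, and their deviations correlated at 0.0999 over 14760 genes. Mbd4 had the fewest counts of the members, at 81 to 159 per library.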
